A study of Homo sapiens with 2 samples.

Results

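Glutathione transferases were followed in the human hepatoma line HepG2, which derives from a liver cancer, as 10 genes out of 18417 with a value: the cytosolic alpha class genes GSTA1, GSTA2 and GSTA4, the pi gene GSTP1, the zeta gene GSTZ1, the omega gene GSTO1, the mitochondrial kappa gene GSTK1, and the membrane-bound genes MGST1, MGST2 and MGST3. They are a named list of cytosolic and microsomal transferases, each read by 1 probe whose annotation gave a single gene symbol. The list was chosen by a rule that used their log2 differences between these arrays, so those differences are given as a description. Of the 2 Affymetrix arrays, 1 held RNA of HepG2 cells exposed for 24 h to 100 mg/L of amorphous silica nanoparticles (SiO2-NP) prepared in MEM medium, and 1 held RNA of control HepG2 cells. Both cultures were the same line in MEM, and the labels give no particle size, vehicle, culture time of the control or replicate culture. Values are log2 intensities, and the control value is subtracted from the SiO2-NP value in every difference. Neither group had a replicate array, so no test was run and "higher" and "lower" describe these arrays and not the conditions.

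Glutathione transferases join the tripeptide glutathione to electrophilic compounds, which are then exported and turned into mercapturic acids. Alpha class enzymes are abundant in hepatocytes, and the microsomal enzymes belong to a separate family of membrane proteins that also handle lipid hydroperoxides and leukotrienes. Several cytosolic members are textbook targets of the transcription factor NRF2, which binds antioxidant response elements when it is released from KEAP1.

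The liver character of the RNA was visible on both arrays. A level filter was set at 7.26, the median over genes of the mean log2 intensity, and 9209 genes were at or above it. All 9 hepatocyte and hepatoma markers with a value were above it, from 11.04 to 13.41 in SiO2-NP cells and from 10.97 to 13.50 in control cells, albumin (ALB) and alpha-fetoprotein (AFP) among them. Of the markers of other cell types, 1 of 10 for fibroblasts, 3 of 10 for leukocytes and 1 of 10 for endothelium were above the filter. Fibroblast markers ran from 3.28 to 7.67 in SiO2-NP cells and from 3.29 to 7.43 in control cells, and endothelial markers from 4.08 to 7.42 in SiO2-NP cells and from 4.11 to 7.16 in control cells. Of the leukocyte markers, LYZ (lysozyme) had 13.27 in SiO2-NP cells, against 13.23 in control cells, and CD68 had 9.49 in SiO2-NP cells, against 9.61 in control cells. The pan-leukocyte marker PTPRC had 3.71 in SiO2-NP cells, against 3.65 in control cells. In such a culture, fewer cells of a type and less RNA per cell cannot be told apart. Of the 10 transferases, 7 were above the filter, and GSTA2, GSTP1 and GSTZ1 were under it. The filter is not a detection call. Beyond the marker sets and the grouping of genes by level, levels of different probes are not compared.

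Of the 10 members, the alpha class genes stood lowest against the control, and GSTA1 and GSTA2 were the only members past 1.5-fold (0.58 on the log2 scale) in either direction. GSTA1 (NCBI gene 2938), which encodes the major hepatocyte alpha enzyme, had a log2 intensity of 9.12 in SiO2-NP cells, against 9.92 in control cells. The difference of -0.80 made it 1.74-fold lower, the place 7 from the lowest among the 9209 genes above the filter. GSTA2 (NCBI gene 2939), the closely related liver alpha gene, had 6.74 in SiO2-NP cells, against 7.67 in control cells. Its difference of -0.92, or 1.90-fold lower, was the largest of the 10 members and was 12 from the lowest among all 18417 genes. GSTA2 lay just under the filter, with a mean of 7.21, its control value being above 7.26 and its SiO2-NP value below it. Alpha genes are alike in sequence, and whether each probe reads its own transcript alone was not tested. GSTA4 (NCBI gene 2941), whose enzyme prefers the lipid peroxidation product hydroxynonenal, had 8.65 in SiO2-NP cells, against 8.96 in control cells. That is a difference of -0.31, or 1.24-fold lower.

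**Figure D1:**
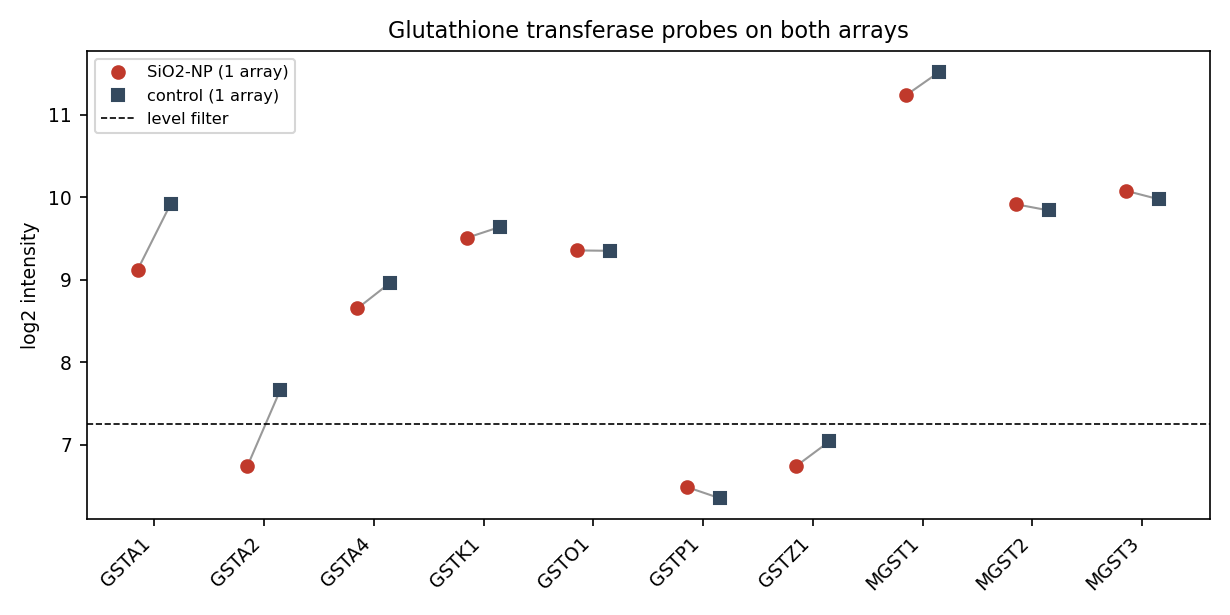
Log2 intensity of each of the 10 transferase probes in SiO2-NP cells (circles, 1 array) and control cells (squares, 1 array), with the level filter of 7.26 as a dashed line. GSTA1 has the steepest line above the filter, 9.12 in SiO2-NP cells against 9.92 in control cells, and GSTA2 crosses the filter, while GSTO1 is level at 9.36 and 9.35.

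The number of members past 1.5-fold was read against all genes. Above the filter, 1 of 7 members (GSTA1) was at least 1.5-fold lower, where 0.25% of all genes were, and 0 of 7 were at least 1.5-fold higher, where 0.141% were. Without the filter, 2 of 10 members were lower, where 0.369% of all genes were, and 0 were higher, where 0.331% were. At 1.2-fold, 3 of the 7 members above the filter (GSTA1, GSTA4 and MGST1) were lower, where 7.53% of all genes above the filter were, and 0 were higher, where 2.99% were. The members were listed with these differences known, so the counts describe the list and support nothing further.

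The promoters of the most different pair are shown because they are almost the same sequence. Promoters of the RefSeq table for GRCh38.p14 were matched by symbol for 9 of the 10 members; MGST2 was not matched. Only the 250 bases before the annotated start are used, they are the reference and not the HepG2 sequence, and all are written 5′ to 3′ on the gene's strand. GSTA1 lies at chr6:52803817-52804066 and GSTA2 at chr6:52763476-52763725, both on the minus strand. They are identical at 243 of 250 positions, and capitals mark the 7 positions that differ.
GSTA1: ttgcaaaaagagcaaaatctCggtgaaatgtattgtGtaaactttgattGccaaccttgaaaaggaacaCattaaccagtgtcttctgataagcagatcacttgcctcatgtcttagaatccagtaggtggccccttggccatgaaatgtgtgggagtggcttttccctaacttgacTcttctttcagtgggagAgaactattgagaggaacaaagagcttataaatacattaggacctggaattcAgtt
GSTA2: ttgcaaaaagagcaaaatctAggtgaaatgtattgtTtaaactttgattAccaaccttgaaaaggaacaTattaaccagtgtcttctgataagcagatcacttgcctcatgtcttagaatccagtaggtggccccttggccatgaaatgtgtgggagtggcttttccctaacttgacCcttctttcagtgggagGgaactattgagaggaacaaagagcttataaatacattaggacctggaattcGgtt
Both hold TATAAA, the letters of a TATA box, 30 bases before the start. GSTA1 and GSTA2 are 40.8% and 40.4% G and C, with 1 CpG each, where the median of all 35116 promoters is 58.0% and 11 CpG. TATAAA on either strand occurs in 10.7% of those promoters and in 4 of the 9 matched members (GSTA1, GSTA2, GSTO1 and 1 of 3 MGST1 starts). The percentage counts promoters, while the members are counted as genes and have 11 promoters in all. In GSTO1 the match is on the reverse strand, 216 bases before the start, and in MGST1 it is 197 bases before it.

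The core letters of the antioxidant response element, TGACNNNGC on either strand, were in 3 of the 9 matched members and in 10.9% of all promoters of the same length. GSTA4 was below the control, GSTP1 above it and GSTO1 level with it. Their promoters are set side by side, with the matched letters in capitals. GSTA4 lies at chr6:52995285-52995534 (minus strand), GSTO1 at chr10:104254642-104254891 and GSTP1 at chr11:67583562-67583811 (plus strand).
GSTA4: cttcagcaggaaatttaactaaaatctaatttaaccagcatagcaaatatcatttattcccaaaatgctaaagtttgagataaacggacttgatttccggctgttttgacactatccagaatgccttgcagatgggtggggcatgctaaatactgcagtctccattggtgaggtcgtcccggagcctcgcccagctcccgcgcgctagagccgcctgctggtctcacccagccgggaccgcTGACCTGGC
GSTO1: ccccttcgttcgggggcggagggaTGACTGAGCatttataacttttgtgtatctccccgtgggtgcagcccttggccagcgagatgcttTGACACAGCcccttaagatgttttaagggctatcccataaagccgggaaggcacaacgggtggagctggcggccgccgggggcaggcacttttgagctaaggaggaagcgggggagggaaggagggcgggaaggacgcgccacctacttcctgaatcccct
GSTP1: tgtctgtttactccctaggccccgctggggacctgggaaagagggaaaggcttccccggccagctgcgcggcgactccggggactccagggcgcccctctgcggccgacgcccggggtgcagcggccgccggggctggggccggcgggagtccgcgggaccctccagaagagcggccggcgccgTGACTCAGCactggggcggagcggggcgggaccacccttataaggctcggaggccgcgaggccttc
The match began 9 bases before the start in GSTA4, 226 and 161 bases before it in GSTO1, and 66 bases before it in GSTP1. The differences of these genes were -0.31, 0.00 and 0.14. Among the other alpha, mu and omega genes, GSTM1 and GSTM5 also held a match, with differences of -0.26 and -0.34. GSTA1 and GSTA2 held no match in this window, which says nothing about elements further away.

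**Figure D2:**
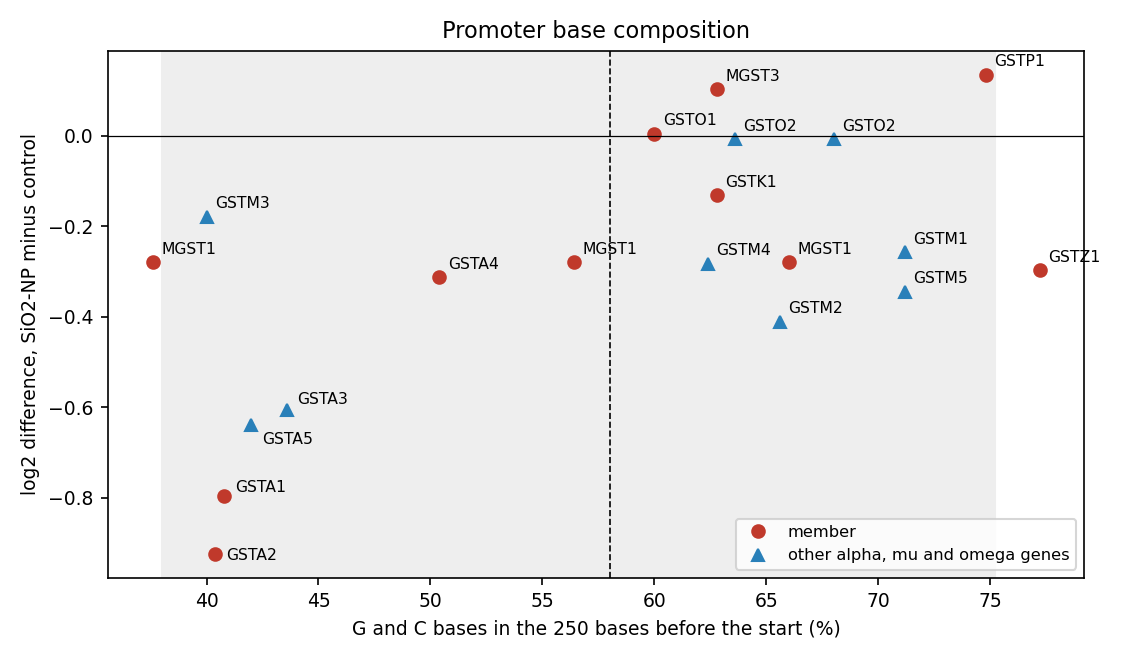
Share of G and C bases in the 250 bases before each annotated start (horizontal axis, percent) against the log2 difference SiO2-NP minus control (vertical axis) for members (circles) and other alpha, mu and omega genes (triangles); genes with several starts appear once for each. The dashed line is the median of all promoters (58.0%) and the band their central 80% (38.0% to 75.2%); GSTA1, GSTA2, GSTA3 and GSTA5 lie at 40.4% to 43.6%, with differences from -0.92 to -0.61, but GSTM3 at 40.0% and an MGST1 start at 37.6% go with -0.18 and -0.28.

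Other cytosolic members differed less, and not all in 1 direction. GSTZ1 (NCBI gene 2954), the maleylacetoacetate isomerase of tyrosine breakdown, had 6.74 in SiO2-NP cells, against 7.04 in control cells, a difference of -0.30. GSTK1 (NCBI gene 373156), the kappa enzyme of mitochondria and peroxisomes, had 9.51 in SiO2-NP cells, against 9.64 in control cells, a difference of -0.13. Neither reached 1.5-fold. GSTP1 (NCBI gene 2950), the pi enzyme that is abundant in many tumours and scarce in hepatocytes, was under the filter on both arrays. It had 6.49 in SiO2-NP cells, against 6.35 in control cells, a difference of 0.14. GSTO1 (NCBI gene 9446), an omega enzyme with an active-site cysteine and thioltransferase activity, had 9.36 in SiO2-NP cells, against 9.35 in control cells. Its difference of 0.00 was the smallest of the 10.

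The 3 microsomal genes were split. MGST1 (NCBI gene 4257), the enzyme of the endoplasmic reticulum and outer mitochondrial membrane with transferase and peroxidase activity, had 11.24 in SiO2-NP cells, against 11.52 in control cells. The difference was -0.28, or 1.21-fold lower. MGST2 (NCBI gene 4258), which can make leukotriene C4, had 9.92 in SiO2-NP cells, against 9.84 in control cells, a difference of 0.08. MGST3 (NCBI gene 4259), a relative with peroxidase activity, had 10.08 in SiO2-NP cells, against 9.98 in control cells, a difference of 0.10. MGST1 thus lay below the control and its relatives slightly above it.

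The spread of differences depended on the level, so each member was set beside the genes of its own level bin (all 18417 genes in 4 equal bins by mean level). In the highest bin the central 95% of differences ran from -0.34 to 0.24, and in the bin just under the filter from -0.36 to 0.43. GSTA1 lay below the first range and GSTA2 below the second. The other 8 members, GSTA4 and MGST1 included, lay inside their ranges. The share of genes below the control was 59.8% above the filter and 47.6% over all genes, against 4 of 7 and 6 of 10 members. The direction of 9 members was kept after centring, a running median by level and quantile normalization; GSTO1 turned to -0.01 after centring. The largest move of any member was 0.08.

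**Figure D3:**
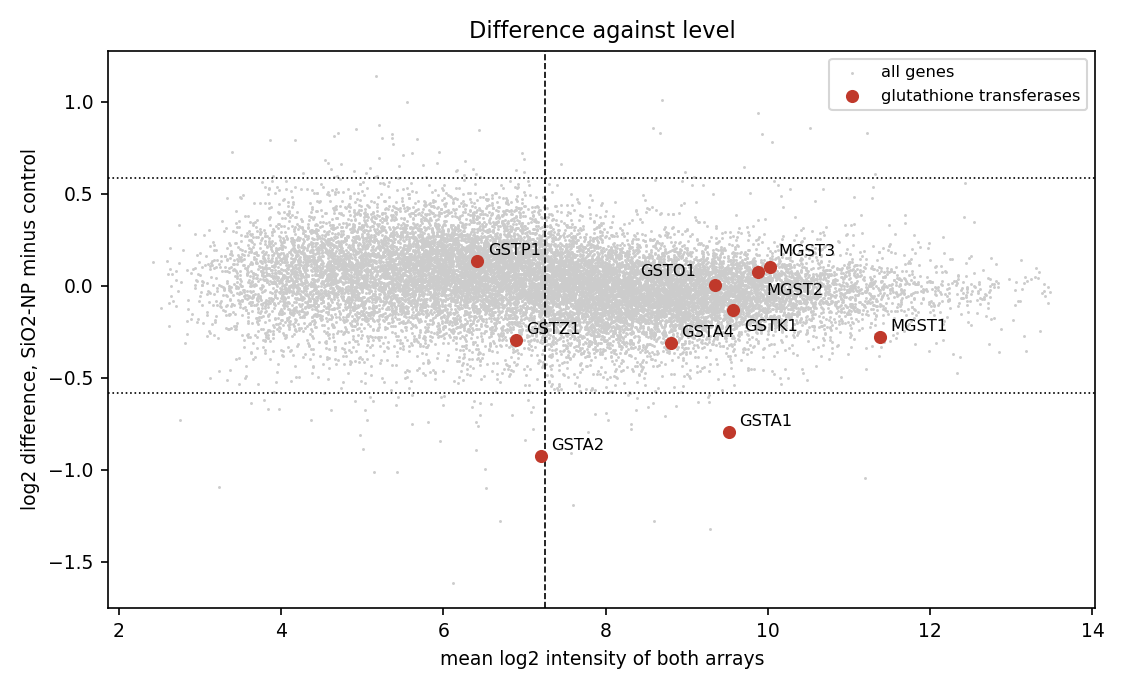
Log2 difference SiO2-NP minus control against mean log2 intensity for all 18417 genes (grey) and the 10 transferases (red), with the level filter of 7.26 dashed and 1.5-fold dotted. GSTA1 (-0.80) and GSTA2 (-0.92) lie under the lower dotted line, below most genes of like level, and the other 8 lie between the dotted lines.

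Transferases and relatives outside the list of 10 were read the same way, 13 of 16 with a single-symbol probe. The other alpha genes were under the filter on both arrays and lower in exposed cells. GSTA5 had 3.31 in SiO2-NP cells, against 3.95 in control cells, a difference of -0.64. GSTA3, known for steroid isomerase activity in steroid-making tissue, had 4.79 in SiO2-NP cells, against 5.40 in control cells, a difference of -0.61. All 5 alpha genes were therefore below the control, and 4 of them were at least 1.5-fold lower, where 0.369% of all genes were. Among these 5 genes, the RefSeq order along chromosome 6 is GSTA2, GSTA1, GSTA5, GSTA3 and GSTA4, with differences of -0.92, -0.80, -0.64, -0.61 and -0.31. Other genes between them were not looked at, and a link of difference to position was not tested. Whether the GSTA3 and GSTA5 probes read GSTA1 or GSTA2 transcripts was not tested.

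All 5 genes of the mu class, another cytosolic class with broad substrates, were also below the control, with differences from -0.41 to -0.18, against -0.92 to -0.31 in the alpha class. GSTM2 had 8.00 in SiO2-NP cells, against 8.42 in control cells, a difference of -0.41. GSTM4 had 9.34 in SiO2-NP cells, against 9.62 in control cells, and GSTM3 had 8.22 in SiO2-NP cells, against 8.40 in control cells. These are differences of -0.28 and -0.18. GSTM5 and GSTM1, both under the filter, differed by -0.34 and -0.26, with 5.34 and 6.49 in SiO2-NP cells, against 5.68 and 6.74 in control cells. None of the 5 reached 1.5-fold, and GSTM2 alone lay below the central 95% of its level bin, whose bound is also -0.41 to 2 decimals. The mu genes too are alike in sequence and lie together, on chromosome 1.

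The remaining relatives were mixed. The theta gene GSTT1 had 10.17 in SiO2-NP cells, against 10.02 in control cells, a difference of 0.15, the highest of the 23 family genes with a value. GSTCD, which carries a transferase-like domain, had 8.41 in SiO2-NP cells, against 8.74 in control cells, a difference of -0.32. GSTO2, the omega relative, differed by -0.01, and so did not follow the alpha and mu genes. Under the filter, the prostaglandin E synthase PTGES differed by 0.13, the prostaglandin D synthase HPGDS by -0.02 and ALOX5AP, the leukotriene pathway protein, by -0.04. All 13 kept their direction under the 3 scalings. The median difference was -0.13 over the 7 members above the filter and -0.28 over the 5 relatives above it, beside -0.03 over all genes above it. With a filter at the 75th percentile, which left only GSTM4 and GSTT1 of the relatives, their median was -0.066. Over all 10 members the median was -0.21, and over the 7 members outside the alpha class it was 0.00.

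**Figure D4:**
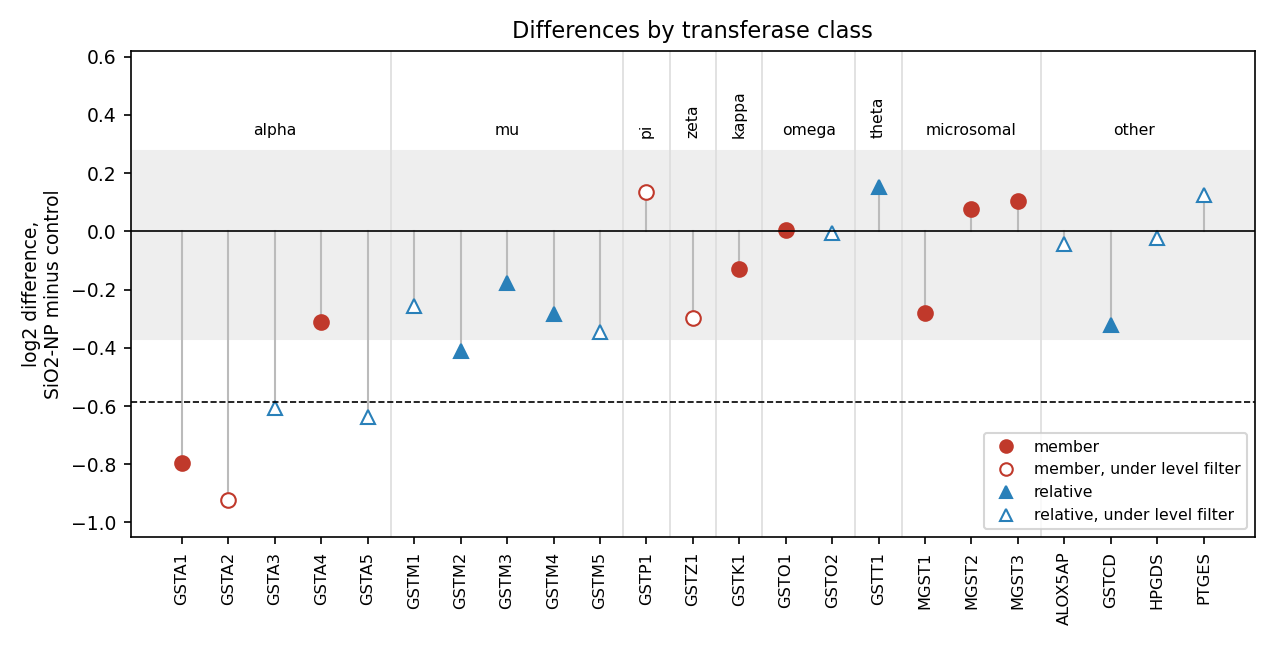
Log2 difference SiO2-NP minus control for the 10 members (circles) and 13 relatives (triangles) by class, with open symbols for genes under the level filter, the dashed line at 1.5-fold lower and the band for the central 95% of genes above the filter (-0.37 to 0.28). Every alpha and mu gene is below 0, GSTA1, GSTA2, GSTA3 and GSTA5 lie under the dashed line, and GSTT1 is the highest at 0.15.

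Genes that make and recycle glutathione had a median difference of -0.04 over the 18 above the filter, beside -0.03 over all genes above it. Of these, 4 were above and 14 below the control, where 59.8% of all genes were below. That split depended on the scaling. GSS, GSR, GPX2, GLRX, SLC3A2 and OPLAH, 6 genes below the control as reported, were above it after quantile normalization. The median of all genes above the filter then turned as well, from -0.03 to 0.01. Of the 18 genes, 0 reached 1.5-fold as reported, where 0.141% of all genes were higher and 0.25% lower. GCLC and GCLM, the subunits of the rate-limiting glutamate-cysteine ligase, had 9.90 and 7.57 in SiO2-NP cells, against 10.06 and 7.70 in control cells. Those differences were -0.16 and -0.13. Glutathione reductase (GSR) had 11.77 in SiO2-NP cells, against 11.81 in control cells, a difference of -0.04 that turned to 0.01 after quantile normalization. The largest difference of the list was that of CHAC2, which breaks down glutathione, with 7.16 in SiO2-NP cells, against 7.70 in control cells, a difference of -0.55. CTH, which makes cysteine, differed by -0.20, and GGCT, the gamma-glutamylcyclotransferase, by -0.19.

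Steps after conjugation had list medians near 0, with single genes farther below the control. Of 5 export pump genes above the filter, 4 were above the control, with a median of 0.04. ABCC2, the pump of the bile canaliculus, had 11.61 in SiO2-NP cells, against 11.57 in control cells, a difference of 0.04. ABCC1 differed by 0.13, ABCC3 by -0.06 and ABCC5 by 0.05. ABCG2, a pump gene under the filter that was singled out after its value was seen, differed by -0.39 and lay below the central 95% of its level bin. Of 10 genes of the mercapturic acid pathway and glyoxalase above the filter, 4 were above and 6 below the control, with a median of -0.05. ACY3, an aminoacylase that acts on mercapturic acids, differed by -0.35 (7.82 in SiO2-NP cells, against 8.17 in control cells). KYAT3 and KYAT1, cysteine conjugate beta-lyases, differed by -0.34 and -0.18, and KYAT3 lay just below the central 95% of its level bin. GGT7, of the gamma-glutamyltransferase family, differed by 0.17. Under the filter, GGT5 of that family and the dipeptidase gene DPEP3, also named after their values were seen, differed by 0.28 and 0.23.

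Regulators known to act on transferase genes were close to the control. NFE2L2, which encodes NRF2, had 11.04 in SiO2-NP cells, against 11.19 in control cells, and KEAP1, its inhibitor, had 9.05 in SiO2-NP cells, against 9.24 in control cells. These are differences of -0.14 and -0.19. MAFG, a small MAF partner of NRF2, differed by 0.16, and SQSTM1, an adaptor that binds KEAP1, by 0.17. Over the 9 genes of this list above the filter the median was -0.11, beside -0.03 over all genes above the filter. Of the 9, 2 were above and 7 below the control, where 59.8% of all genes above the filter were below. Of 10 liver and xenobiotic regulators above the filter, 6 were above and 4 below the control, with a median of 0.05. The glucocorticoid receptor NR3C1 differed by -0.27, NR5A2 by 0.17, CEBPA by -0.11 and FOXA2 by 0.09. In the lists for supply, export, conjugate processing, NRF2 and liver regulators, 0 genes with a value were at least 1.5-fold higher or lower, where 0.331% and 0.369% of all genes were, so this count is near that of all genes.

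**Figure D5:**
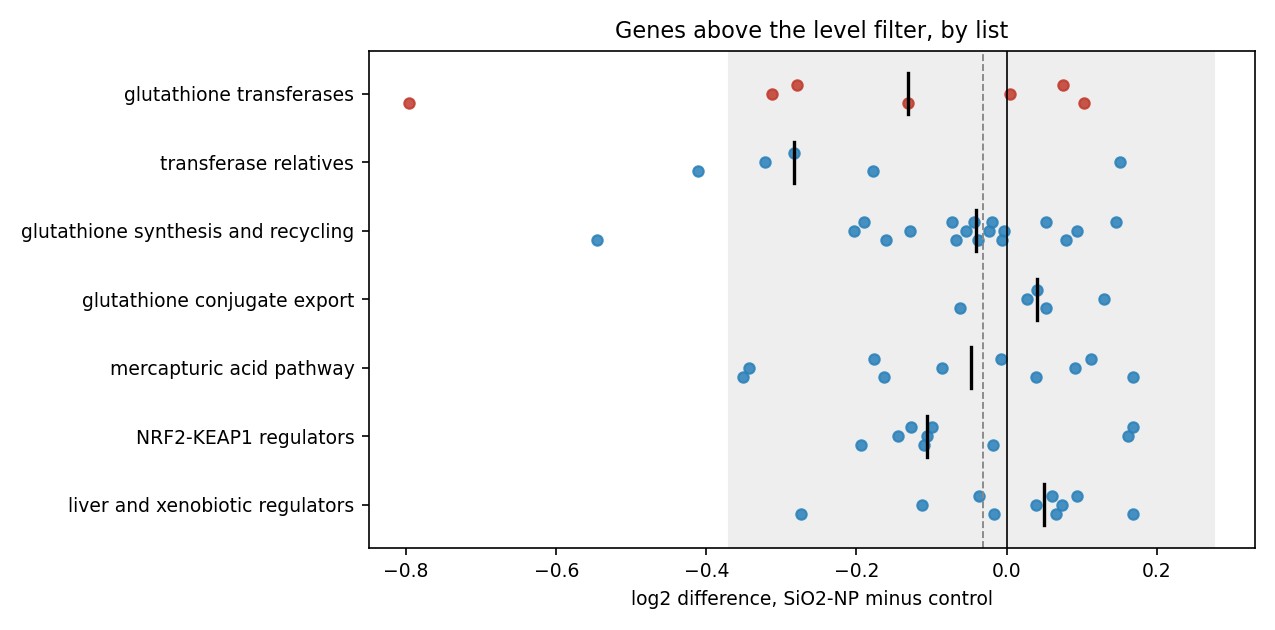
Log2 difference SiO2-NP minus control of each gene above the level filter in the transferase list (red) and 6 pathway lists (blue), with the list median as a black bar, the median of all genes above the filter (-0.03) dashed and their central 95% as a band. GSTA1 at -0.80 is the point farthest from 0, followed by CHAC2 at -0.55, and the supply, export and regulator medians lie between -0.11 and 0.05.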

How the data were processed

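Per the labels' protocols, about 300 ng of total RNA per culture was amplified with a whole-transcript kit, labelled with biotin and hybridised to Affymetrix arrays. The authors deposited 1 log2 intensity per probe and array; the log2 scale was read from the values (2.08 to 14.4). The submitters' processing notes name RMA and MAS5; which of them made the values, and the genome build behind the probes, is not stated in the labels. RMA equalises array distributions and would hide a shift common to most transcripts.

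Of 33297 probes, 19460 had 1 gene symbol and were averaged per gene, giving 18417 genes; 1754 had several symbols and 12083 had none. No test was run, because each group held 1 array, and precision is limited by the number of arrays. Counts used 1.5-fold. Members and lists were chosen with earlier results of these data known. Named genes were all members and all measured relatives. Of each other list, the 4 genes above the filter with the largest absolute difference were named, plus GCLC, GCLM, GSR, NFE2L2 and KEAP1. ABCG2, GGT5 and DPEP3 were added after their values were seen. So were GSS, GPX2, GLRX, SLC3A2 and OPLAH, whose direction turned after quantile normalization. No likeness of pattern was computed, since 2 arrays give none. Alternatives were other scalings, filters, folds and probe rules. Steps were tested on simulated data. Python 3.11.15, NumPy 2.4.6, pandas 2.3.3, matplotlib 3.10.9 and Biopython 1.88 were used.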

Additional observations from a re-analysis of the deposited data

Results flagged for a closer look

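A probe that the comparison left out, because its annotation names both MAML1 and LTC4S (leukotriene C4 synthase, a relative of the microsomal transferases), was higher in exposed cells: 7.48 in SiO2-NP cells, against 7.12 in control cells, a difference of 0.36. Which of the 2 transcripts it reads was not tested, and the other probe with both names differed by 0.10. The 2 probes shared by GSTT2 and GSTT2B held identical values, 7.12 in SiO2-NP cells, against 6.95 in control cells, so they give 1 value. Of the 3 probes shared by GSTT4 and GSTTP2, all under the level filter, 1 differed by -0.59 and the others by 0.10 and 0.09. The mu class pseudogene GSTM2P1 differed by -0.03.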

How the results depend on the processing

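No paired analysis was possible because the groups had no replicates, and so none could be left out. A log2 value was counted as moved when it shifted by more than 0.16, the SD of differences over genes above the filter. The 10 member differences did not move under any of the 5 scaling and probe rules run, and each member has 1 probe, so the probe rules could not change it. Centring shifted every gene by the same -0.01, so it could not move a member either. The bound of 0.16 is larger than the differences of GSTK1, GSTO1, GSTP1, MGST2 and MGST3, so it says little about them. The member median of -0.13 ran from -0.21 with no filter to 0.00 without the alpha genes, with -0.06 without GSTA1 and -0.19 as a mean. The relatives' median was -0.066 with a filter at the 75th percentile, which left only GSTM4 at -0.28 and GSTT1 at 0.15. The medians of the synthesis and mercapturic lists, -0.04 and -0.05, turned to 0.01 each after quantile normalization. Members at least as far below as the fold numbered 2 with no filter, 0 at 2-fold and 3 at 1.2-fold, against 1. All genes higher, 13 as reported, numbered 21 with a running median, 22 after quantile normalization, 61 with no filter, 1 at 2-fold and 275 at 1.2-fold. All genes lower, 23 as reported, numbered 68 with no filter, 8 with the stricter filter, 4 at 2-fold and 693 at 1.2-fold. The filter and fold changes follow from their construction; the cause of the scaling moves was not tested. Genes under the filter, GSTA3 and GSTA5 among them, could not be set against a background signal.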
